A study of Drosophila melanogaster with 18 samples.

Results

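Described here are 9 chromatin and transcription machinery genes with variants in Drosophila melanogaster lines: Spt5, IntS3, Asx, Su(z)2, tou, Nipped-A, Clamp, Topors and HmgZ. They were chosen by their symbol from the genes of the deposited variant lists, with the listed consequences and quality scores known, so every value below describes them and none was tested. They are 9 of the 129 genes with a listed variant and hold 12 of 173 variants. The 12 are 11 different changes, since 1 change in HmgZ was listed in 2 lines. Other genes with such roles, among them Eaf, Psc, Nipped-B and Mnn1, had listed variants too and are not among the 9.

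The lists come from polyadenylated RNA of whole stage 12 embryos of lines from a forward genetic screen on muscle morphogenesis. Line sj266 had 2 samples, line sj440 had 3 and line sj461 had 3, each with 2 numbered replicates that the design text calls technical. In sj440 and sj461, 1 of the replicates stands as 2 samples. In all of them the embryos were homozygous, sorted by hand against a fluorescent balancer chromosome, and the induced allele and the mutagen are not named in the labels. The lines sj154, sj287 and sj340 were not analysed here. Each line has 1 list over all its samples, with no read depth and no value per replicate, and no parental strain was analysed here, so no error between replicates can be given and the depth behind a call is unknown.

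Chromatin and transcription proteins act at different steps of gene expression. Elongation factors and the Integrator complex decide whether RNA polymerase II moves on from the start of a gene or stops there. Polycomb group proteins keep developmental genes such as the Hox genes silent, and remodelling and acetyltransferase complexes move or modify nucleosomes. The question put to the lists was which of these genes are altered in each line, at which site, and with what quality score.

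Of the 12 variants, 9 were annotated at a splice donor or acceptor, the first or last bases of an intron, 2 were missense changes and 1 was an in-frame insertion. Line sj266 held 8 of them, in Spt5, IntS3, Asx, tou, Nipped-A, Topors and HmgZ. Line sj440 held 2, in Su(z)2 and HmgZ, and line sj461 held 2, in Clamp and tou. These were 21.1% of the 38 variants of sj266, 2.94% of the 68 of sj440 and 2.99% of the 67 of sj461. The shares count the 9 chosen genes alone: Psc, Nipped-B and Mnn1 in sj440 and Eaf in sj266 are left out. At a quality of at least 30, the counts in the 9 genes were 5 in sj266, 2 in sj440 and 2 in sj461, and at a quality of at least 50 they were 5, 1 and 2. Without variants listed in more than 1 line, sj440 held 1. Only Clamp lies on arm 2L, and 11 of the 12 variants lie on 2R, against 82 of the 161 variants in other genes. In sj266 alone the counts on 2R were 8 of 8, against 16 of 30. Positions are counted from 1 on the BDGP6 build.

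**Figure D1:**
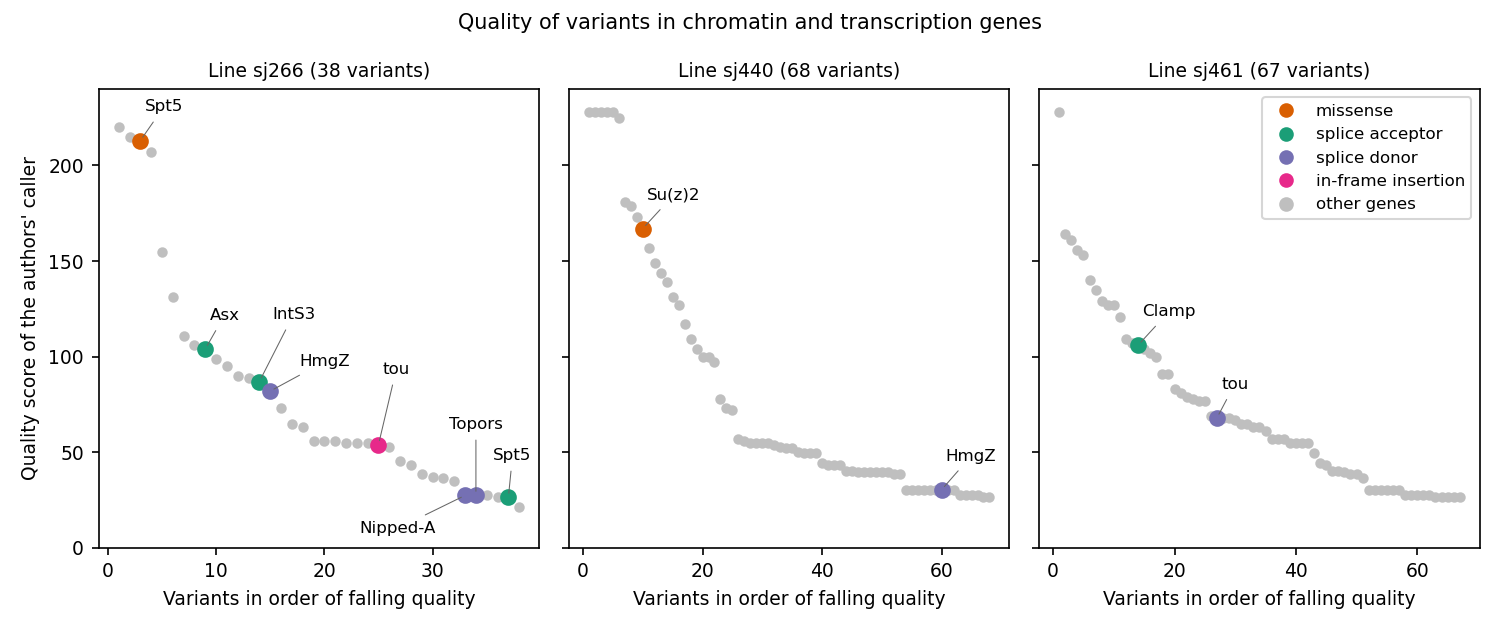
Quality score of every listed variant (vertical axis, no unit) in order of falling score (horizontal axis) for lines sj266, sj440 and sj461, with variants of the 9 genes coloured by consequence and those of other genes in grey. The missense changes in Spt5 (213) and Su(z)2 (167) sit near the top of their lists, and the splice-site variants run between 106 in Clamp and 26.4 in Spt5.

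Spt5 encodes the large subunit of DSIF, the factor that holds RNA polymerase II in its paused state and later travels with it through the gene. The gene spans 2R, 19437483 to 19441898. In sj266 it carried the missense change E225K at position 19438822, where the codon GAG became AAG, so that an acidic glutamate was replaced by a basic lysine. Its quality score of 213 ranked the third of the 38 variants of sj266, behind bark (220) and Oatp30B (215) and just above Tango1 (207). The fifth score of that list was 155. The change lies at base 789 of the transcript and base 673 of the coding sequence.

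The same gene in the same line had a second entry, a G-to-A change at a splice acceptor at position 19438784, with a quality of 26.4. This was the lowest score among the 15 splice-site variants of sj266 and ranked 36 of 38 in the whole list. The entries of Spt5 lie 38 bp apart. The acceptor's G is the last base of the intron, so the missense base is base 38 of the following exon, which begins at coding base 636, the third base of codon 212. The scores of these neighbouring calls differ by a wide margin, 213 for the exonic base and 26.4 for the intronic one. Whether both changes lie on the same chromosome cannot be read from the list.

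IntS3 encodes a subunit of Integrator, which cuts the ends of small nuclear RNAs and ends transcription by paused polymerase. In sj266 it had a G-to-A change, on the strand of the RNA, at a splice acceptor (2R, 4236363, in a gene that spans 4235779 to 4242934). Its quality was 87, the second highest of the 15 splice-site variants of the line. The site lies 91.8% along the gene from its start, and the gene has 1 RefSeq transcript, as Spt5 does.

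A list of 33 symbols of elongation and Integrator genes held 9 genes on chromosome 2 beside Spt5 and IntS3, and 1 of these 9 had a listed variant, against 2.34% of all 5508 protein-coding genes of the chromosome. It was Eaf, a partner of the elongation factor ELL, which had an in-frame deletion of 1 glutamine from a glutamine run in sj266, with a quality of 99. Spt5, IntS3 and Eaf were all altered in sj266. No other gene of this list was listed in sj440 or sj461. The list was written with earlier results of these data known, so its 1 of 9 beside 2.34% is a description only.

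Asx and Su(z)2 are Polycomb group genes with links to histone H2A ubiquitination. Asx is the partner of the enzyme that removes ubiquitin from H2A, and Su(z)2 is a relative of Psc, a core subunit of the complex that adds it. Asx had an A-to-T change at a splice acceptor in sj266 (2R, 14507255, in a gene that spans 14503958 to 14512493). Its quality of 104 was the highest of the 15 splice-site variants of sj266 and ranked the ninth of all 38. The gene has 4 RefSeq transcripts, and the entry names 1 transcript, so whether the others use this acceptor was not tested.

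Su(z)2 carried the missense change S180P in sj440 (2R, 13000265, in a gene that spans 12996501 to 13007911), where the codon TCC became CCC. Proline constrains the peptide backbone, which serine does not. The quality of 167 ranked the tenth of the 68 variants of sj440. It was the only A:T to G:C change among the 11 single-base changes of the 9 genes, and it read T to C on the strand of the RNA.

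Psc itself, 22387 bp from that site, had the missense change A96T in sj440 (2R, 12977878, in a gene that spans 12965997 to 12980994), with a quality of 30.4. Psc and Su(z)2 were each other's nearest listed neighbours: the genes are separated by 15506 bp, with 1 protein-coding gene between them. Both changes were thus listed in the same line, with scores of 167 in Su(z)2 and 30.4 in Psc. A list of 24 Polycomb group symbols held 8 genes on chromosome 2 beside Asx and Su(z)2, of which 1, Psc, had a variant, against 2.34% of all protein-coding genes of the chromosome. This list too was written with earlier results of these data known, so the 1 of 8 is a description only.

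On the BLOSUM62 scale, which scores how often residues replace each other in related proteins, E225K of Spt5 scored 1 and S180P of Su(z)2 scored -1. Over the 95 listed missense changes the median was 0, with 40 at 1 or above and 32 at -1 or below. Neither residue change was therefore at an end of the range, which ran from -3 to 3. No effect on a protein was measured.

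**Figure D2:**
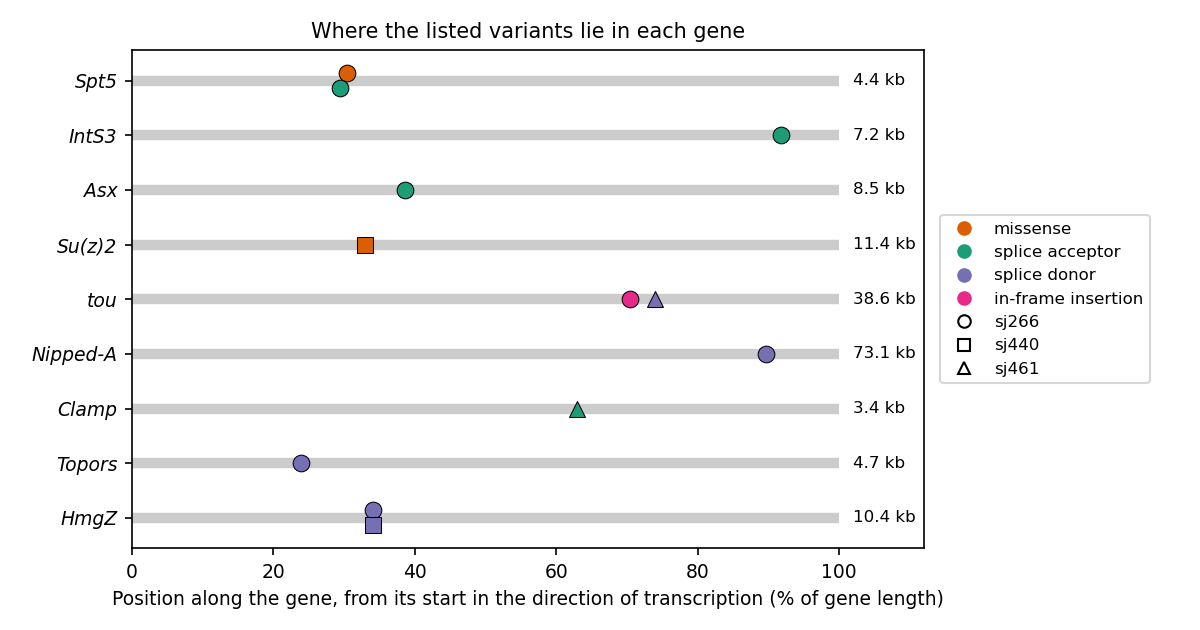
Position of each variant along its gene, in percent of the RefSeq gene interval from the start in the direction of transcription, with colour for consequence, shape for line and the gene length in kb at the right. The entries of Spt5 nearly coincide at about 30% of a gene of 4.4 kb, those of tou lie at 70.5% and 73.9% in different lines, and the HmgZ change sits at the same point in sj266 and sj440 (markers of Spt5 and HmgZ are set apart vertically).

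The gene tou, or toutatis, encodes a relative of the large subunits that guide the ISWI nucleosome remodeller. It was the only one of the 9 genes with different variants in different lines. In sj461 it had a T-to-A change at a splice donor (2R, 11587536, quality 68), the fourth of 12 splice-site variants by score. In sj266 it had an in-frame insertion at 11588880 that added 1 glycine to residues 846 to 848, all glycines in the entry, with a quality of 54. Whether the glycine run extends past these residues was not read. The sites lie 1344 bp apart in a gene that spans 11577485 to 11616045, and the donor is downstream of the glycines.

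Among all 28 listed insertions and deletions, 14 changed the protein by a net 1 residue, and 3 had a lower quality than the one in tou. The median quality of the 28 was 114. The tou insertion was thus among the lowest scores of its class. Of 28 symbols of remodelling and trithorax genes, 10 lay on chromosome 2 beside tou, and 0 of them had a variant. The share over all protein-coding genes of the chromosome was 2.34%. This list too was written with earlier results of these data known. It left out Mnn1, a partner of trithorax-type methyltransferases that had a variant in sj440, so the 0 of 10 is a description only.

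Nipped-A is the fly TRRAP, a very large scaffold shared by the SAGA and Tip60 acetyltransferase complexes. Its T-to-A change at a splice donor in sj266 (2R, 5185573, in a gene that spans 5177965 to 5251022) had a quality of 27.4. The gene is the longest of the 9, at 73058 bp, and the site lies 89.6% along it. Its score was shared with 2 other variants of the line, 1 of them in Topors. Of 28 symbols of SAGA and Tip60 subunits, 9 lay on chromosome 2 beside Nipped-A, and 0 of them had a variant. With 2.34% of all protein-coding genes of the chromosome hit, 0 of 9 is not a departure from that share.

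Clamp encodes a zinc finger protein that binds GA repeats and brings the dosage compensation complex to the male X chromosome. In sj461 it had a G-to-A change at a splice acceptor (2L, 22166988, in a gene that spans 22165720 to 22169143). Its quality of 106 was the highest of the 12 splice-site variants of sj461 and of the 9 in these genes. It ranked 14 of 67 in the whole list.

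Topors, a ubiquitin and SUMO ligase of the nuclear lamina that acts on the gypsy insulator, had a G-to-A change at a splice donor in sj266 (2R, 18973723, in a gene that spans 18972612 to 18977262). Its quality was 27.4, as in Nipped-A. Of 21 symbols of dosage compensation and insulator genes, 4 lay on chromosome 2 beside Clamp and Topors, and 0 of these 4 had a variant, where 2.34% of all protein-coding genes of the chromosome had one. Clamp and Topors came from different lines.

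HmgZ encodes a small HMG-box protein that bends DNA. The identical G-to-C change, on the strand of the RNA, stood at a splice donor in sj266 and sj440 (2R, 21704322, in a gene that spans 21697488 to 21707861). Its quality was 82 in sj266, the third of 15 splice-site variants. It was 30.4 in sj440, a score that 8 other variants of that line had as well. No variant in HmgZ was listed in sj461. The lists of sj266 and sj440 share a workbook. Entries of the same gene and consequence stood in both of these lines for Lpin, pyr and ord as well. Such entries also stood in sj440 and sj461, from different workbooks, for CG15082 and Np. Whether those entries are identical changes is not given here. The source of the shared HmgZ change was not tested, and a shared stock and shared processing cannot be told apart.

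The position also lies inside the RefSeq interval of HmgD, the closely related neighbour of HmgZ, which had no entry of its own. The remaining 10 variants of the 9 genes lay inside 1 gene only. In the other genes 14 of 161 variants lay inside more than 1 gene. Which of the overlapping genes gave the reads was not tested. Of 9 symbols of HMG-box and architectural proteins, 3 lay on chromosome 2 beside HmgZ, and 0 of them had a variant. Among all protein-coding genes of the chromosome the share was 2.34%, so 3 genes are too few to differ from it. Nipped-B, which encodes the cohesin loader and had a variant in sj440, was in none of the lists.

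Splice-site variants made up 75.0% of the 12 variants of the 9 genes (exact 95% interval 42.8 to 94.5), against 23.6% of 161 variants in other genes (17.3 to 30.9). Over all 173 listed variants the share was 27.2%. Since the genes were chosen with these consequences in view, the contrast is a description. By line, splice-site variants were 6 of 8 in the 9 genes and 9 of 30 in other genes of sj266, 1 of 2 and 19 of 66 in sj440, and 2 of 2 and 10 of 65 in sj461. The HmgZ change counts in both sj266 and sj440, and counted once it leaves 8 splice-site changes among 11. Missense changes were 16.7% (2.09 to 48.4), against 57.8% (49.7 to 65.5). No stop or start codon was altered in 12 variants of the 9 genes (exact upper limit 26.5%), against 3 in the 161 others.

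**Figure D3:**
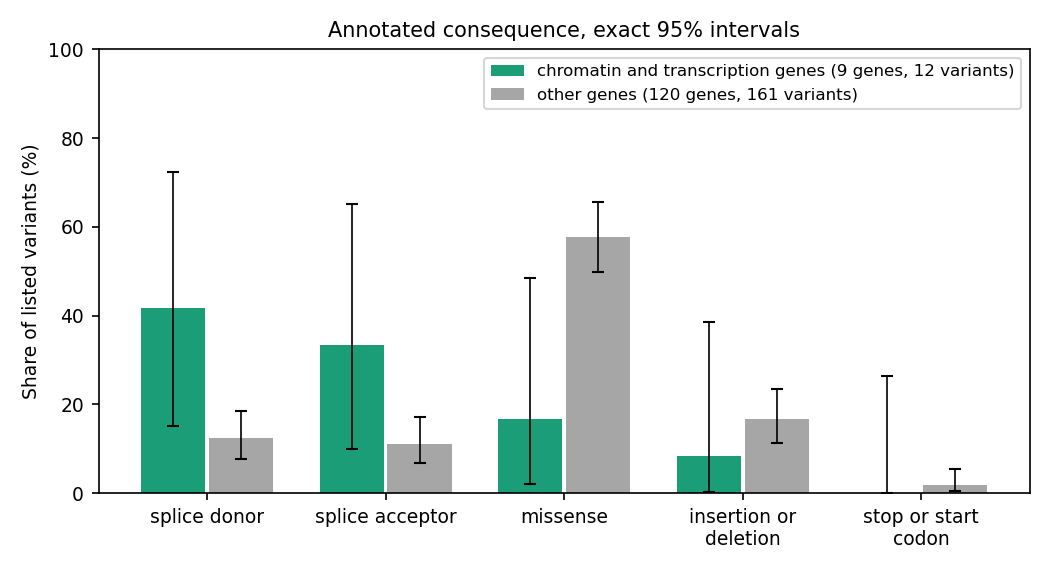
Share of listed variants by annotated consequence (vertical axis, percent) for the 9 chromatin and transcription genes and the 120 other genes, with exact 95% intervals that cover counting error only. Splice donors (41.7%) and acceptors (33.3%) lead in the 9 genes, against 12.4% and 11.2% in the others, where missense changes lead (57.8%).

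The splice-site calls of sj266 stood at both ends of the scores. Asx (104), IntS3 (87) and HmgZ (82) had the 3 highest scores of the 15 splice-site variants of sj266, and Nipped-A (27.4), Topors (27.4) and Spt5 (26.4) had the 3 lowest. The 9 splice-site variants of other genes in that line ran between 34.7 and 73. Clamp (106) and tou (68) in sj461 stood above the median of the line's other splice-site variants, 47.7, and HmgZ in sj440 (30.4) below the corresponding 54.

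Low scores recur as exact values. The value 26.4 stood at 9 of the 173 variants, 27.4 at 12 and 30.4 at 15, so that Spt5's acceptor, Nipped-A, Topors and HmgZ in sj440 share their scores with many other calls. A quality under 30 was found for 3 of 12 variants of the 9 genes, against 19 of 161 in other genes. A quality of 100 or more was found for 4 of 12, against 43 of 161. The median quality was 75 in the 9 genes (95% interval by order statistics 27.4 to 106) and 55 in the others (52 to 63). The second interval lies inside the first, and the lists give no scale for the score.

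By site, 5 of the splice-site variants were at donors and 4 at acceptors, against 20 and 18 in the other genes. Of the donors, the G was changed in 3 (Topors and both entries of HmgZ) and the T in 2 (Nipped-A and tou). Of the acceptors, the A was changed in 1 (Asx) and the G in 3 (Spt5, IntS3 and Clamp), and each of these 3 was a change of G to A. Among the 11 changes at an acceptor G in other genes, 5 were G to A. All of these bases are intronic and are gone from a spliced RNA. The kind of read behind these calls is not given, and no effect on splicing was measured.

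**Figure D4:**
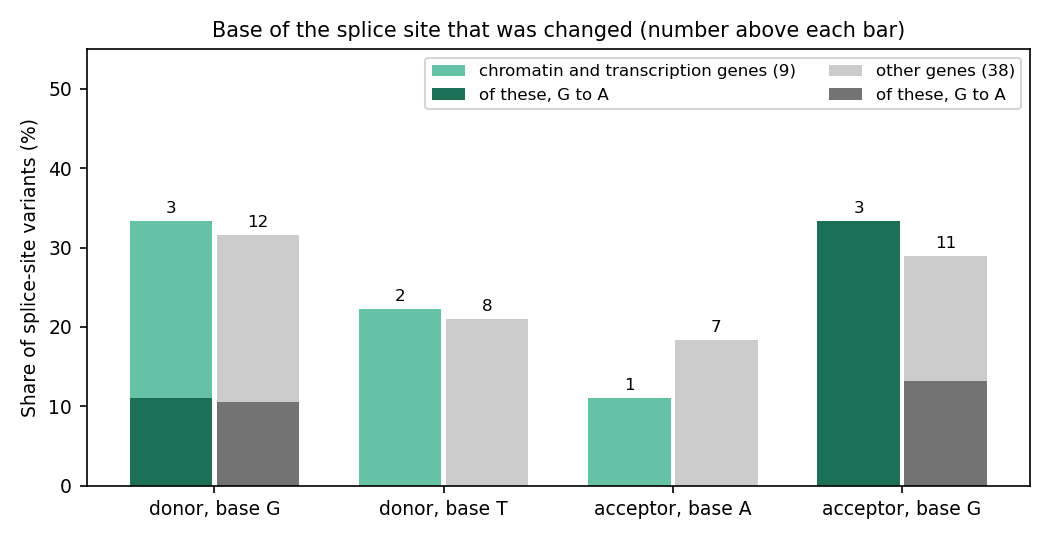
Base of the splice site that was changed, as a share of the splice-site variants (vertical axis, percent) of the 9 chromatin and transcription genes and of other genes, with numbers of variants above the bars and G-to-A changes in the darker shade. The shares of the 4 site bases lie between 11.1% and 33.3% in the 9 genes and between 18.4% and 31.6% in the others, and 3 of 3 changes at an acceptor G are G to A in them, against 5 of 11.

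Single-base changes in the 9 genes were of 4 types. Of the 11 changes, 5 turned a G:C into an A:T pair, or 45.5% (exact 95% interval 16.7 to 76.6), in Spt5 (both entries), IntS3, Topors and Clamp, against 38 of 134, or 28.4% (20.9 to 36.8), in other genes. The share was 25.0% of 4 without line sj266, and 33.3% of 9 without variants within 100 bp of another. A:T to T:A changes were 3 (Asx, Nipped-A and tou), against 25, so that without the Spt5 pair both types had the same number. G:C to C:G changes were 2, both the HmgZ entry, against 11. On the strand of the RNA all 5 G:C to A:T changes read G to A and 0 read C to T, against 30 and 8 in the other genes. Of these 5, 4 were at splice sites, where the changed bases were only G, T or A. A splice-site change therefore could not read C to T. Splice-site changes were 9 of the 11 single-base changes, against 38 of the 134 in other genes, so no strand preference can be read here. The intervals of the G:C to A:T shares overlap. Of the 5, E225K of Spt5 had the highest score (213), followed by Clamp (106) and IntS3 (87).

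Apart from the Spt5 pair, the variants stood far from others: the nearest listed variant of the same line was between 22387 bp (Su(z)2) and 949210 bp away (IntS3, whose nearest neighbour was Nipped-A). The 9 genes had a median length of 8536 bp, against 7824 bp for the 120 other genes and 2044 bp for all protein-coding genes of chromosome 2. Across all the lists of related genes together, 50 genes lay on chromosome 2. Without the 9, which are in the lists because they were known to be hit, 41 were left, of which Eaf and Psc had a variant. The lists were written with earlier results of these data known, and they left out Nipped-B and Mnn1, which also had variants. The count for these 41 is therefore a description as well. Of all protein-coding genes of the chromosome, 2.34% had a variant.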

How the data were processed

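The authors deposited 1 variant list per line, with a position, alleles, a consequence and the quality score of their caller. The submitters' processing notes name STAR 2.5.4b, cutadapt 2.4 and, as genome build, BDGP6. Not given in the sources used here are the caller, its filters and the scale of its score. Lists were tied to lines by worksheet name. The 202 entries were merged by line, position and alleles to 173 variants, which left the 12 entries of the 9 genes as they were. Base changes were turned to the strand of the annotated transcript. Gene intervals, overlaps and transcript numbers came from the RefSeq table of Release 6 plus ISO1 MT, where each variant lay inside its gene's interval. That table holds no exons, so splice sites were not checked against it. Of 141 symbols in 6 lists of related genes, 137 were found there.

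Shares have exact (Clopper-Pearson) 95% intervals, for counting error only. The 9 genes and the lists were chosen with earlier results of these data known, and no test was run. All variants of the 9 genes are named, as are list genes with a variant, neighbours in rank at the top of sj266, and HmgD, which was named for its overlap. Lpin, pyr, ord, CG15082 and Np were named for entries in 2 lines. Alternatives were quality minimums, the removal of A-to-G, clustered or shared variants, other merging, single-base changes alone and leaving out a line. Python 3.11.15, pandas 2.3.3, scipy 1.17.1, Biopython 1.88 and matplotlib 3.10.9 were used.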

Additional observations from a re-analysis of the deposited data

How the results depend on the processing

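Of 57 recomputed values, 53 stayed within the interval or within 1.5 times the value reported. The intervals are wide, so staying within them is a weak check. Line sj266 kept 5 of its 8 variants in the 9 genes at a quality of at least 30 and 5 at a quality of at least 50, as Nipped-A, Topors and the acceptor of Spt5 fall below both limits. Line sj440 kept 1 of 2 at a quality of at least 50, and 1 without variants listed in more than 1 line, since HmgZ is lost under both. The splice-site share ran from 62.5% to 81.8%, the median quality from 68 to 95.5, and the share of G:C to A:T changes from 25.0% (without line sj266, 4 changes) to 55.6%. Merging, by any rule tried, changed nothing in the 9 genes, which also held no A-to-G change. These alternatives therefore could not move a value, though they count among the 57. Leaving out a line leaves the counts of the others as they are. No paired analysis was possible because each line has 1 list over its samples, with no value per replicate, and for the same reason no replicate could be left out.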

Other observations

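Other genes with a role in chromatin or transcription stood in the lists without being among the 9 or in the lists of related genes, and they were named after their values were seen. Nipped-B, which encodes the cohesin loader, had a splice acceptor variant in sj440 with a quality of 27.4. Mnn1, the fly menin, a partner of trithorax-type methyltransferases, had an in-frame deletion with a net change of -2 residues in sj440, with a quality of 149. In the same line mam, which encodes the Notch co-activator Mastermind, had an insertion of glutamines (QH to QQQH) with a quality of 97.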
